A study of Saccharomyces cerevisiae with 18 samples.

Results

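Tandem gene pairs are neighbouring protein-coding genes on the same strand, so that the transcript of the upstream gene runs towards the start of the downstream one. Of 5986 neighbouring pairs of nuclear protein-coding genes in the R64 yeast annotation, 2896 lay on 1 strand, and in 2827 of these the coding sequences did not overlap. The 775 pairs described here are those in which each member had at least 50 reads covering its coding sequence whole, and no other coding sequence whole, in the standard libraries of both media together. They comprise 1368 genes, out of 3140 with 50 such reads and 6002 in all. These read counts chose the members and are not a result. The lower member had 50 to 55 reads in 39 of the pairs kept and 45 to 49 reads in 43 of the pairs left out.

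The reads come from TIF-Seq (transcript isoform sequencing), in which the ends of each full-length cDNA are ligated into a circle and sequenced over the junction, so that the start and the poly(A) site of 1 molecule are known together. All 18 libraries were made from wild-type SLS045, a diploid of the S288c background, at mid-log phase (OD 1) in YPAD with 1% glucose or YPGal with 1% galactose. Standard libraries numbered 6 from 2 glucose cultures and 6 from 4 galactose cultures, libraries enriched for long mRNAs numbered 2 from 2 cultures in each medium, and non-capped control libraries numbered 1 in each medium. The deposited table sums the libraries of a kind, which gave 6290819 standard reads in glucose, 6425269 in galactose, 2745847 long-enriched reads in glucose and 3559614 in galactose, and 1317650 and 1100551 non-capped reads. No spread between replicates can be had from summed columns, so no test over replicates was possible. The 95% intervals below for a share (exact binomial) and for a difference of shares (Newcombe) cover counting error only. Those for a median (order statistics) are taken over pairs or genes and reflect the spread among them. The cultures behind the long-enriched libraries, 2 of the 4 in galactose, also gave standard libraries, so a value seen in both protocols is a technical repeat.

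In budding yeast the end of an mRNA is set by cleavage and polyadenylation at weakly conserved, A- and U-rich signals, and RNA polymerase II is released some way further on. When release fails upstream of a tandem neighbour, the polymerase can run across the neighbour's promoter, which is known as transcriptional interference, and a transcript that ends inside or beyond the neighbour carries its sequence. Yeast ribosomes as a rule translate the first open reading frame of such a molecule, and the DNA-binding factor Reb1 is known to act as a roadblock that stops polymerases running out of an upstream gene.

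The sequences between transcripts are short. Shown first are the gaps, from the base after the upstream median 3′ end to the base before the downstream median 5′ start on the transcribed strand, of 4 pairs with read-through that the results below turn on. Capitals mark TATAAA (the TATA box) or TTACCCG (the Reb1 site) on either strand.

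CDD1-MAP1, chrXII:626350-626387, minus strand: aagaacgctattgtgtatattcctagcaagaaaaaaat

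HTC1-YPL068C, chrXVI:425137-425162, minus strand: gatgagctgatgagacagtagataaa

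ATP15-MDL2, chrXVI:30389-30458, plus strand: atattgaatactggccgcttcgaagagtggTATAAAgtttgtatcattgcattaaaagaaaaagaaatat

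NCS6-YPT32, chrVII:93689-93768, plus strand: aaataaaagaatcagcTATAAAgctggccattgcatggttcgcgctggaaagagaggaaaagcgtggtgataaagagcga

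Below them stand the gaps of the 3 pairs with next to no read-through, at 58 to 71 nt close to ATP15-MDL2 and NCS6-YPT32 in width but wider than the other two, chosen after their values were seen as the smallest gaps among pairs with at least 1000 upstream reads and under 0.1% of them past the downstream start.

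LIA1-HAM1, chrX:569433-569490, minus strand: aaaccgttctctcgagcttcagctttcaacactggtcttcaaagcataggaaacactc

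UMP1-SMY2, chrII:581478-581544, minus strand: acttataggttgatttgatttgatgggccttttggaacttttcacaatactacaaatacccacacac

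EAF6-AIM24, chrX:581646-581716, minus strand: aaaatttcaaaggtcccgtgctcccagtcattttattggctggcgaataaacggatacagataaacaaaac

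The share of A and T in these gaps ran from 55.2% in LIA1-HAM1 to 71.1% in CDD1-MAP1. TATAAA occurs in 2 of the 7, ATP15-MDL2 and NCS6-YPT32, and TTACCCG in none of them.

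The typical tandem pair left a gap of 188 nt between the transcripts (median over 775 pairs, interval 179 to 198, quartiles 125.5 and 343). A gap is the number of bases between the upstream gene's median 3′ end and the downstream gene's median 5′ start, and is negative where they overlap. Both medians are over standard reads that cover the gene's coding sequence whole and no other coding sequence whole. Of the median distance of 369 nt from stop codon to start codon, the upstream 3′ UTR took a median of 112 nt and the downstream 5′ UTR 41 nt. The medians of the gap in the separate columns were 187 nt in glucose, 187 nt in galactose, 180.5 nt in long-enriched glucose and 184.5 nt in long-enriched galactose reads, all within the interval of the pooled value. The transcripts of 33 pairs overlapped, 21 pairs were 0 to 50 nt apart and 43 were over 1000 nt apart. An annotated non-coding gene or pseudogene lay between the members of 46 pairs, 22 of them among the 43 widest.

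**Figure D1:**
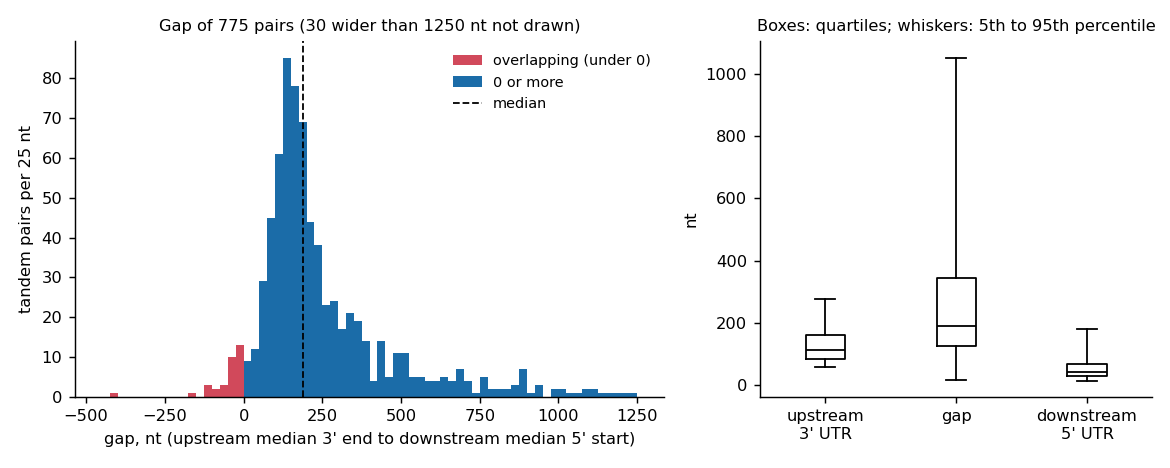
Left, number of tandem pairs by gap in nt in bins of 25 nt, with overlapping pairs in red, the others in blue and the median of 188 nt dashed; 30 pairs wider than 1250 nt are not drawn. Right, box plots of upstream 3′ UTR, gap and downstream 5′ UTR in nt over the 775 pairs (box, quartiles; line, medians of 112, 188 and 41 nt; whiskers, 5th to 95th percentile); most pairs lie between 0 and 500 nt, with a tail of wider ones.

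The upstream members' 3′ UTRs were set beside those of genes that face another gene end to end. Their median was 112 nt (interval 106 to 117) beside 116 nt (111 to 121) in the 1034 members of 517 convergent pairs filtered alike. The downstream members' 5′ UTRs had a median of 41 nt (39 to 43) beside 40 nt (38 to 42) in the 910 members of 455 divergent pairs. Both intervals overlap. The arrangement of transcripts was different: 4.26% of tandem pairs had transcripts that overlapped, whereas 353 of 517 convergent pairs (68.3%) and 0 of 455 divergent pairs did. Over all 517 convergent pairs, overlapping or not, the median gap was −73 nt.

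The widest gaps were ADH4-ZRT1 at 4452 nt (an alcohol dehydrogenase upstream of the zinc transporter), HOL1-ESF2 at 4008 nt, KAP123-GLE2 at 3879 nt, USE1-SRM1 at 3373 nt and MTC3-VRG4 at 3062 nt. An annotated tRNA gene, other non-coding RNA gene or pseudogene lay in each of these 5 gaps. None of their 76, 79, 58, 130 and 149 standard upstream reads, in that order, ended past the downstream start. No molecule in the data spans more than 5000 nt, and these reads had median lengths of 1824, 2296, 3606, 1116 and 459 nt. In ADH4-ZRT1, HOL1-ESF2 and KAP123-GLE2 that length and the gap together exceed the limit. There a read past the start could hardly have been seen.

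In the 33 overlapping pairs the median overlap was 37 nt (interval 19 to 45). The deepest was PMP1-YCR024C-B with 410 nt. PMP1 encodes a small regulator of the plasma membrane proton pump, the coding sequence of YCR024C-B begins 79 bases after its stop codon, and 6680 of 6794 standard reads covering PMP1 also covered YCR024C-B whole. Of all standard reads covering YCR024C-B, 95.8% began upstream of PMP1. These 2 coding sequences were thus mostly on 1 molecule in these data. The overlap of 410 nt leaves such molecules out, and the 114 other PMP1 reads ended inside YCR024C-B. Over all PMP1 standard reads the most used end lay 536 nt after the PMP1 stop codon. PMP1 has a near-identical copy, so that its read count is uncertain.

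The next deepest overlaps were RGM1-YMR181C (169 nt), HAP5-VTS1 (115 nt), BIG1-GEP4 (104 nt) and SLX8-SPR6 (103 nt). All 205 HAP5 reads, from a gene for a subunit of the CCAAT-binding activator of respiration, ended past the start of VTS1, which encodes an RNA-binding protein, but 0 of them covered VTS1 whole. In RGM1-YMR181C, 11 of 82 standard and 104 of 171 long-enriched reads covered both coding sequences. Of the long-enriched reads over SPR6, a sporulation gene, 45.4% began upstream of SLX8, which encodes a SUMO-targeted ubiquitin ligase subunit, against 2.43% of the standard reads. A negative gap fixes a share past the downstream start of about 50% or more, so the shares of overlapping pairs, from 64.9% in RSC6-THR4 to all reads, are a description of the overlap.

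Read-through was counted as the share of all reads covering the upstream coding sequence whole whose 3′ end lay past the downstream gene's median 5′ start. In most pairs it was not seen: of 742 pairs with a gap of 0 or more, 500 had 0 such standard reads, 395 of them with over 100 upstream reads. A further 135 pairs had a share above 0 and under 1%, 82 had 1 to under 10%, and 25 had 10% or more. In these 742 pairs 1.53% of upstream reads in glucose ended past the downstream start (18694 of 1223923), as did 1.28% in galactose, 1.22% in long-enriched glucose and 1.49% in long-enriched galactose reads. In the non-capped control columns 1.05% of 12809 and 1.27% of 15538 reads did. The 6 pooled values lie between 1.05 and 1.53%, but in glucose and galactose standard reads RPS14A-SYP1 alone supplied 12086 and 7713 of the reads past the start. Without this pair the shares were 0.562% in glucose, 0.741% in galactose, 0.944% in long-enriched glucose, 1.31% in long-enriched galactose, and 0.537 and 1.24% in the non-capped columns. The order of the media in standard reads turns over with that pair, and of the 9950 galactose reads left, 3017 belong to MDH1-HOT13. A pooled share thus describes 1 or 2 pairs more than the class.

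Pairs, rather than pooled reads, gave another picture of the protocols. Among pairs with a gap of 0 or more and at least 50 upstream reads in a column, 78 of 561 (13.9%) in glucose and 84 of 641 (13.1%) in galactose had 1% or more. In long-enriched reads 128 of 561 (22.8%) in glucose and 134 of 636 (21.1%) in galactose did. The long-enriched columns are shallower, with 594158 beside 1233492 upstream reads in glucose and 873212 beside 1388040 in galactose over all 775 pairs. At 50 reads, 1 read past is enough for 1%, and the pairs can differ between columns. The part of depth in this difference was not tested.

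Read-through of 1% or more was most frequent among close pairs. A share of 1% or more was found in 19 of 21 pairs with a gap of 0 to 50 nt, in 22 of 74 at 51 to 100 nt, in 25 of 148 at 101 to 150 nt and in 17 of 147 at 151 to 200 nt. It was found in 16 of 127 pairs at 201 to 300 nt, 7 of 105 at 301 to 500 nt, 1 of 77 at 501 to 1000 nt and 0 of 43 beyond that. No molecule in the data spans more than 5000 nt, which limits what the widest class could show. The gap is itself measured from the upstream 3′ ends, so a small gap and a large share are partly the same measurement.

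The annotated distance between the coding sequences shares no reads with the share, and gave the same order when molecules ending past the downstream start codon were counted over all 775 pairs. A share of 1% or more was then found in 23 of 48 pairs up to 200 nt apart (47.9%), 30 of 196 at 201 to 300 nt (15.3%), 26 of 185 at 301 to 400 nt (14.1%), 17 of 177 at 401 to 600 nt (9.60%), 2 of 99 at 601 to 1000 nt (2.02%) and 0 of 70 beyond. In long-enriched reads the shares of pairs were 60.5, 34.4, 23.7, 14.6, 4.17 and 0%, in the same order. These are of the 43, 183, 169, 164, 96 and 64 pairs with at least 50 long-enriched upstream reads, a filter the standard values do not carry. The limit of 5000 nt on the span of a molecule bears on the widest class here too. This measure of distance was added after the data were seen.

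**Figure D2:**
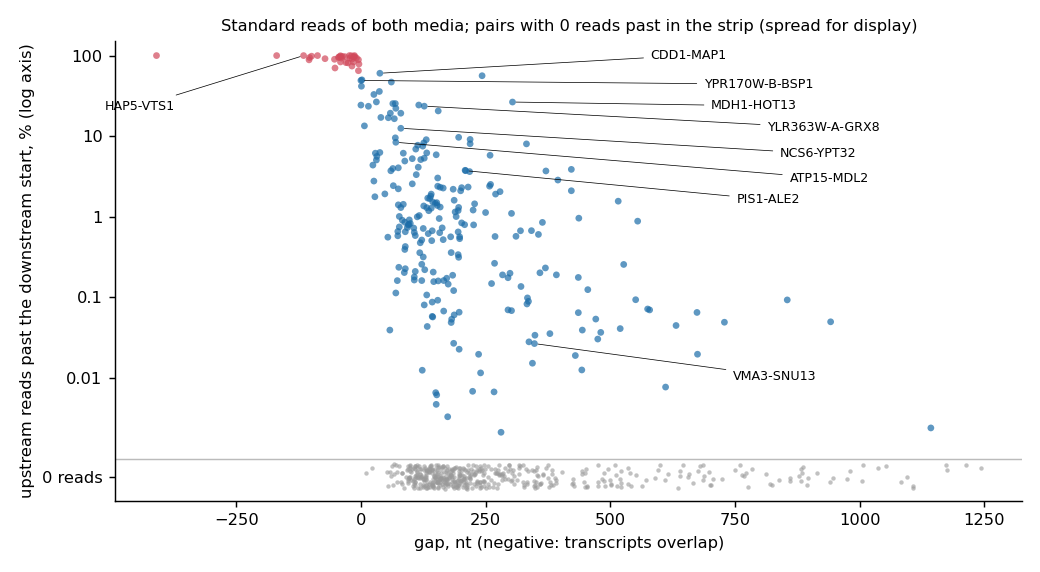
Share of standard upstream reads of both media that end past the downstream median 5′ start, in percent on a log axis, against the gap in nt, 1 point per tandem pair up to 1250 nt, with overlapping pairs in red. The 472 pairs drawn with 0 reads past sit in the strip at the bottom, all at a gap of 0 nt or more, and 19 of the 21 pairs at 0 to 50 nt lie at 1% or above.

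The reads past the downstream start ended in different places in the 2 protocols. In pairs with a gap of 0 or more, 84.1% of the 36357 standard reads ended before the downstream start codon, 13.5% inside the downstream coding sequence and 2.48% past its stop codon. Of the 20041 long-enriched reads, 38.1% ended before the start codon, 38.7% inside the coding sequence and 23.3% past the stop codon. Without RPS14A-SYP1, whose 19799 standard reads past the start all ended before the start codon, the standard shares were 65.0, 29.5 and 5.45% of 16558 reads, and the long-enriched ones 25.6, 46.4 and 27.9% of 16692. Of the 10764 standard reads before the start codon that are left, 4644 belong to YPR170W-B-BSP1, 2045 to ATP15-MDL2 and 1417 to MDH1-HOT13, so this share describes a few pairs. With or without RPS14A-SYP1, molecules past the neighbour's stop codon were a larger share of the long-enriched reads. Such molecules span both genes and these libraries were enriched for long mRNAs. The effect of the enrichment cannot be told apart here.

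Bases after the read ends were also counted, since cDNA made from genomic runs of A can look like a polyadenylated end. Of the standard reads not past the downstream start, 6.65% had 7 or more A among the 10 genomic bases after their end, against 34.7% of those past it but before the start codon, 8.12% of those inside the coding sequence and 11.3% of those past the stop codon. RPS14A-SYP1 alone held 10330 of the 10612 A-rich reads before the start codon, and without it the share there was 2.62% of 10764 reads. Counted as distinct pairs of ends, 10.9% of those past the start but before the start codon were A-rich and 7.37% of those not past. Among the named pairs 352 of 582 read-through reads in HTC1-YPL068C and 96 of 215 in YLR112W-HOG1 ended before such bases, and 0 in ATP15-MDL2, ERP5-UBA4, SYN8-NTG1, YGL108C-CUE3 and YPR170W-B-BSP1. For RPS14A-SYP1, HTC1-YPL068C and YLR112W-HOG1 the part of the A-rich genome sequence in the share was not tested.

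The 10 highest shares among pairs with a gap of 0 or more and at least 200 upstream reads ran from 60.4% in CDD1-MAP1 to 23.5% in SYN8-NTG1. These pairs were chosen by this share, so the order is a description. CDD1 encodes cytidine deaminase and MAP1 a methionine aminopeptidase, which removes the first residue of new proteins. Of the CDD1 reads 69 of 121 in glucose, 94 of 149 in galactose, 446 of 449 in long-enriched glucose and 709 of 719 in long-enriched galactose ended past the MAP1 start. The standard columns are alike and both long-enriched columns lie far above them.

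Read-through CDD1 molecules mostly carried the whole of MAP1. Both coding sequences were covered by 117 of 270 standard and 1076 of 1168 long-enriched reads, from 29 and 164 distinct pairs of ends. The most used end past the start lay 1390 nt after the CDD1 stop codon, near the 3′ end of MAP1, with 60 standard and 520 long-enriched reads. In standard reads the molecules with both coding sequences had a median length of 1851 nt, beside 561 nt for those that ended before the MAP1 start. Seen from MAP1, 1.71% of 6832 standard reads and 29.6% of 3631 long-enriched reads over MAP1 began upstream of CDD1.

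YPR170W-B-BSP1 and RPS14A-SYP1 stand high because their gap is 0, which puts the limit next to the upstream median end itself. YPR170W-B is a putative component of the vacuolar proton pump per the annotation, and BSP1 encodes an actin filament-binding protein. The shares past the BSP1 start were 48.7% of 6554 reads in glucose, 49.9% of 3867 in galactose, 61.9% of 257 and 57.2% of 313 in the long-enriched columns. Only 4.58% of standard reads reached the BSP1 start codon and 2.06% ended over 50 nt past the start. RPS14A encodes a protein of the small ribosomal subunit and SYP1 an inhibitor of actin branching. The median SYP1 start lies 960 nt before its start codon, from 84 standard reads, and in long-enriched reads the most used SYP1 start lies 85 nt before it. Of 81433 RPS14A reads, 19799 ended past the 960-nt start but 0 reached the SYP1 start codon, so these molecules end within the intergenic DNA. Reads of RPS14A are uncertain, as it has a near-identical copy.

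Several other pairs had a second cluster of ends on the downstream start codon. The most used end past the start lay 3 nt after the A of the start codon in SYN8-NTG1 (an endosomal SNARE upstream of a DNA repair glycosylase), 6 nt after it in MDH1-HOT13, 12 nt in ERP5-UBA4 (a p24 cargo receptor family member upstream of the Urm1-activating enzyme), 14 nt in YGL108C-CUE3 (CUE3 acts in ribosome-associated quality control), and 17 nt in HTC1-YPL068C and in YLR363W-A-GRX8 (GRX8 is a glutaredoxin). In ERP5-UBA4 26.6% of 406 standard reads ended past the UBA4 start and 0 over 50 nt past it. In SYN8-NTG1 the shares were 23.5% of 1680 reads and 0.0595%. In YGL108C-CUE3 they were 35.9% of 209 reads and 1.91%. In standard reads of these 3 pairs the upstream ends thus reached just into the neighbour's reading frame and few went further. In long-enriched reads of YGL108C-CUE3, 23 of 100 ended over 50 nt past the start, and 19 of the 55 read-through reads past the CUE3 stop codon. YLR363W-A-GRX8 and HTC1-YPL068C have longer downstream leaders (50 and 40 nt). Their end near the start codon falls over 50 nt past the start, and that share was 22.7 and 23.6%. In HTC1-YPL068C 9 of the 10 genomic bases after this end are A.

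The bases around such ends are shown for 3 pairs, 15 on each side of the most used end before and past the downstream start, with the 10 bases after the end in capitals.

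SYN8-NTG1, end before, chrI:128103-128132, minus strand: tatactttatagcccAAAAAAAAAAaaaat

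SYN8-NTG1, end past, chrI:128084-128113, minus strand: aaaaaaaaaatatgcAAAAGATCAGtaaat

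MDH1-HOT13, end before, chrXI:280148-280177, plus strand: gagtgaaaaatagggAAAAAAAAAAaaaaa

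MDH1-HOT13, end past, chrXI:280501-280530, plus strand: aaatatagatgatcgAAACTGCCATttatg

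ERP5-UBA4, end before, chrVIII:333019-333048, plus strand: gacttaagctgatgcCGTTGACTGCaaaag

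ERP5-UBA4, end past, chrVIII:333070-333099, plus strand: caatgaatgactaccATCTCGAGGAtacca

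In MDH1 and SYN8 the main end, which borders the gap, sits before a run of 10 or more A in the genome, and the end past the start does not. Within such a run the last transcribed base cannot be told apart from the first base of the tail.

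MDH1, the mitochondrial malate dehydrogenase of the citric acid cycle, had the only share above 10% among the 105 pairs with a gap of 301 to 500 nt. It lies 304 nt upstream of HOT13, which encodes a zinc-binding protein of the mitochondrial import machinery and had 83 standard reads. Past the HOT13 start ended 354 of 1573 MDH1 reads in glucose, 3017 of 11135 in galactose, 915 of 1273 in long-enriched glucose and 5166 of 7194 in long-enriched galactose. The first pair of values is 22.5 and 27.1%, the second 71.9 and 71.8%, so the protocols lie far apart, while the media differ by 4.59 points (2.31 to 6.75) in standard reads and −0.07 points (−2.69 to 2.67) in long-enriched ones. MDH1 ends formed 2 clusters: 8577 of 12708 standard reads ended 35 nt after the stop codon, and the largest single end past the start lay 388 nt after it with 1200 reads. The end at 35 nt is the one before the genomic run of A shown above. In long-enriched reads the order was turned, with 2159 and 2716 of 8467 reads at these ends. The median molecule was 1125 nt long when it ended before the HOT13 start and 1474 nt when it ended past it.

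YLR112W-HOG1, with the osmotic stress kinase HOG1 downstream, had 24.3% of 883 standard reads past the HOG1 start, of which 82.8% ended before the HOG1 start codon. The HOG1 leader is long, with a median of 138 nt, and the read-through molecules ended in it. The share was 34.3% in long-enriched reads, where 30.2% of the read-through molecules went past the HOG1 stop codon.

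**Figure D3:**
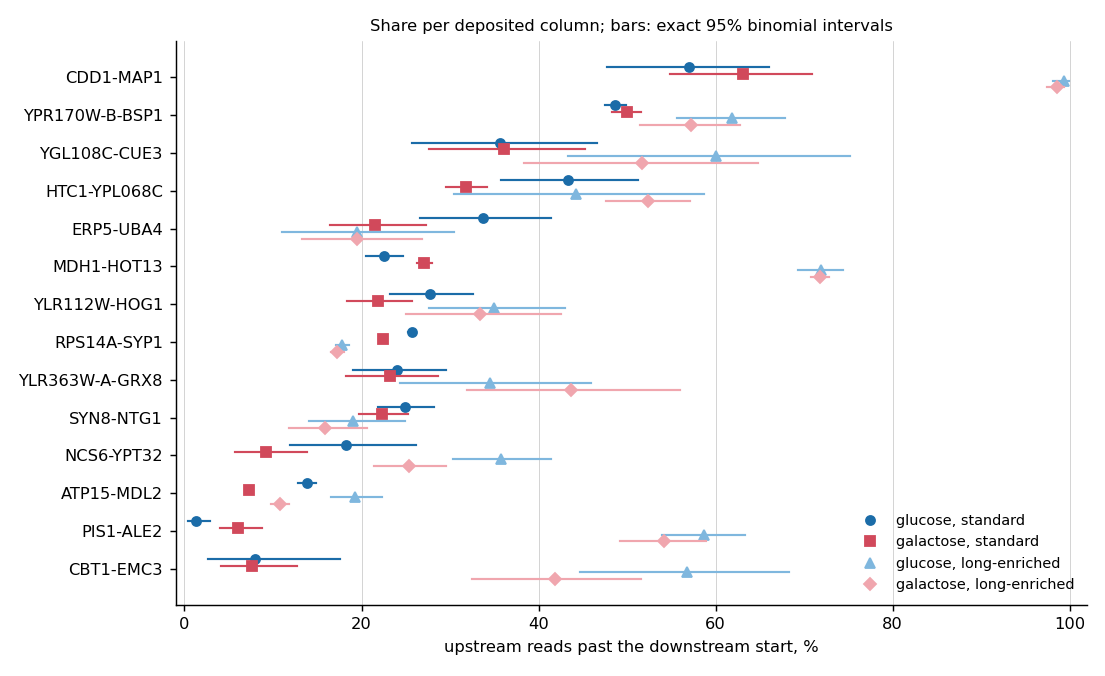
Share of upstream reads past the downstream start, in percent, for 14 named pairs in the 4 capped columns; points are shares and bars exact 95% binomial intervals. CDD1-MAP1, MDH1-HOT13, PIS1-ALE2 and CBT1-EMC3 lie far to the right in both long-enriched columns, and in ATP15-MDL2 both galactose points lie to the left of their glucose points.

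Molecules covering both coding sequences were seen in 134 pairs in standard and 264 in long-enriched reads. They made up 0.330% of upstream reads in glucose, 0.266% in galactose, 0.448% in long-enriched glucose and 0.440% in long-enriched galactose. In the standard columns PMP1-YCR024C-B supplied 6680 of the 7763 such reads. Of these, 7377 ended within 50 nt of the downstream gene's own median 3′ end, as did 5865 of 6498 long-enriched reads, and 42 of the 134 pairs rested on 1 read. After PMP1 and CDD1, the highest standard shares among pairs with at least 200 upstream reads were 34 of 203 in OTU1-SEC53 (a deubiquitylating enzyme upstream of phosphomannomutase), 15 of 233 in CBT1-EMC3 (mitochondrial RNA processing upstream of a membrane protein insertase subunit) and 51 of 800 in ALF1-PGA2 (a tubulin folding factor upstream of a secretory pathway protein). In these 3 pairs the molecules with both coding sequences came from 15, 10 and 34 distinct pairs of ends.

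A share 5 percentage points or more higher in the long-enriched than in the standard reads, in both media and with both intervals excluding 0, was found in 20 of 464 pairs with at least 50 upstream reads in each capped column (4.31%). It was lower in 1 pair, RPS14A-SYP1 (0.216%), at 17.8 and 17.3% in the long-enriched beside 25.7 and 22.5% in the standard columns. This comparison was added after the data were seen. The largest difference in glucose was in PIS1-ALE2, 2 phospholipid genes, which came second in galactose after YDL204W-A-RTN2 (48.5 points, 35.7 to 59.9): PIS1 makes phosphatidylinositol and ALE2 encodes a lysophospholipid acyltransferase. There 5 of 401 PIS1 reads in glucose, 26 of 429 in galactose, 257 of 438 in long-enriched glucose and 230 of 425 in long-enriched galactose ended past the ALE2 start. The 2 protocols do not overlap in this pair: the long-enriched shares are 57.4 points (52.5 to 62.0) higher in glucose and 48.1 points (42.6 to 53.1) in galactose.

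Almost every PIS1 read-through molecule was dicistronic, with 484 of 487 long-enriched reads past the ALE2 stop codon and a median length of 2135 nt beside 809 nt for the others. Of all long-enriched reads over ALE2, 40.6% began upstream of PIS1, against 3.41% of standard reads. CBT1-EMC3 had 56.8 and 41.8% in the long-enriched and 7.94 and 7.65% in the standard columns. YDL204W-A-RTN2, with the reticulon gene RTN2 downstream, had 64.4 and 58.6% beside 19.2 and 10.1%. Smaller differences of the same kind were found for MRPL11-TRM8 (a mitochondrial ribosomal protein upstream of a tRNA methyltransferase), DLS1-MPM1, IRC24-NRE1, APS1-UPS2, IES2-PEX17 and FMP41-PSD1. In each of these 6 pairs more than 40 long-enriched reads covered both coding sequences, from 22 distinct pairs of ends in IES2-PEX17 to 62 in FMP41-PSD1. How often each molecule was made in the cell cannot be read from either column.

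**Figure D4:**
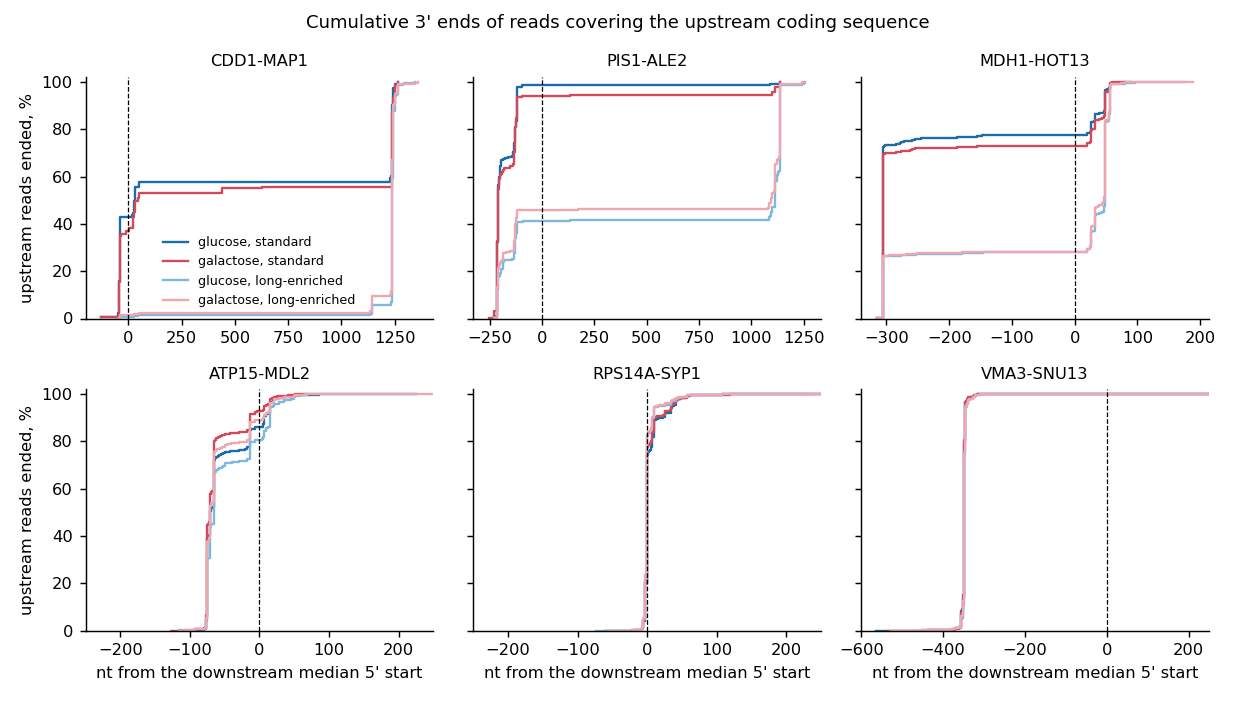
Percent of upstream reads that have ended by each position, against the distance in nt from the downstream median 5′ start (dashed), in the 4 capped columns for 6 pairs; the lower panels are cut 250 nt past the start. CDD1, PIS1 and MDH1 molecules ended in separate clusters on both sides of the start with long stretches of few ends between, ATP15 molecules in a spread of ends that reaches the MDL2 start, and VMA3 molecules all but entirely before the SNU13 start.

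Between the media few pairs differed. The rule asked for a difference of at least 5 points with the interval excluding 0, in the same direction in the standard and the long-enriched reads. Of 464 pairs, 2 were lower in galactose (0.431%) and 0 were higher (0%). Neither pair was called with each pair of ends counted once, where 327 pairs had enough to be tested, or with a 2-fold difference in place of 5 points. ATP15-MDL2 also lost the call at the start codon. NCS6-YPT32 has too few reads for a minimum of 200 per column, so it was not tested there. Without regard to size, 17 pairs were lower and 10 higher in galactose by the standard interval alone, 3 lower and 0 higher by both intervals. In 182 of the 464 pairs the share was 0 in all 4 capped columns.

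ATP15, which encodes the epsilon subunit of the mitochondrial ATP synthase, lies 70 nt upstream of MDL2, which encodes a mitochondrial ABC transporter. Past the MDL2 start ended 661 of 4786 reads in glucose and 1741 of 23797 in galactose, and in long-enriched reads 145 of 752 and 389 of 3621. The shares are 13.8 and 7.32% in standard and 19.3 and 10.7% in long-enriched reads, with both galactose values below both glucose values. The differences are −6.50 points (−7.55 to −5.49) and −8.54 points (−11.7 to −5.68). More ATP15 reads were counted in galactose, and in bulk RNA more cells with the transcript and more RNA per cell cannot be told apart. The molecules past the start ended mostly in the MDL2 leader, 85.1% of them before the start codon in standard reads, and 0 standard reads covered MDL2.

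NCS6, required for the thiolation of tRNA wobble uridines, lies 80 nt upstream of YPT32, a Rab GTPase gene of Golgi traffic. Past the YPT32 start ended 23 of 126 reads in glucose, 20 of 217 in galactose, 109 of 305 in long-enriched glucose and 118 of 466 in long-enriched galactose. The differences are −9.04 points (−17.3 to −1.66) and −10.4 points (−17.1 to −3.79). Unlike those of ATP15, these molecules ran into the neighbour: of 227 long-enriched ones, 114 ended inside the YPT32 coding sequence and 99 past its stop codon. NCS6 reads not past the YPT32 start had a median length of 2213 nt in long-enriched and 1199 nt in standard reads. Many of these long-enriched reads thus began further upstream, and the 2 protocols counted different upstream molecules in this pair. Both calls rest on summed libraries of 2 glucose and 4 galactose cultures, and the spread between cultures is not known.

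In standard reads alone 8 pairs were lower and 1 higher in galactose by 5 points. The other 7 did not meet the rule in the long-enriched reads. In YDL204W-A-RTN2 the difference, galactose minus glucose, was −9.17 points in standard reads (−18.5 to −0.86) and −5.81 points in long-enriched ones, where the interval (−21.2 to 9.93) includes 0. In HTC1-YPL068C it was −11.5 points in standard reads (−19.4 to −3.85) and 8.12 points in long-enriched ones (−6.09 to 21.6). In ERP5-UBA4 it was −12.2 points (−21.0 to −3.44) in standard reads, with shares of 19.4% in both long-enriched columns. OTU1-SEC53, the pair that was higher, went from 74.4 to 86.4% in standard reads, with 97.2 and 99.0% in long-enriched ones.

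**Figure D5:**
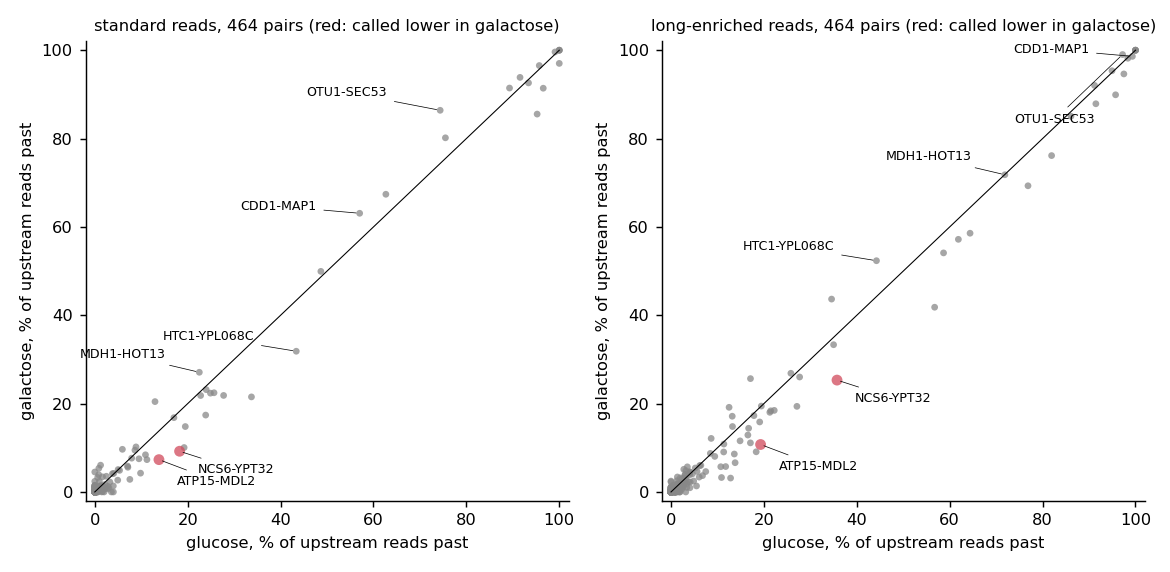
Share of upstream reads past the downstream start in galactose against glucose, in percent, for 464 pairs with at least 50 upstream reads in each capped column, standard reads left and long-enriched reads right; the line marks equal shares. Most pairs lie near the line or at 0, and ATP15-MDL2 and NCS6-YPT32 (red) lie below it in both panels.

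The position of the gap changed with the medium in a few pairs. Among 251 pairs with at least 50 reads for each member in each capped column, the gap was at least 20 nt wider in galactose in both protocols in 5 (1.99%) and narrower in 3 (1.2%), a rule added after the data were seen. The upstream median 3′ end moved by 20 nt or more in both protocols in 0 of the 251 pairs and the downstream median start in 7. LYS20-INH1 and LYS21-STF1 are paralogous tandem blocks in which a homocitrate synthase gene of lysine synthesis lies upstream of a gene for a regulator of the mitochondrial ATP synthase. In LYS20-INH1 the gap went from 281 nt in glucose to 302 nt in galactose in both protocols, and in LYS21-STF1 from 297 to 326 nt in both. In both blocks the downstream start moved by the whole amount, and the upstream end by 0 nt.

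TIF34-NDE1, with the external NADH dehydrogenase NDE1 downstream, went from 784 to 828 nt in standard reads, and COX14-ERO1, with the thiol oxidase ERO1 downstream, from 1073 to 1097 nt. SCJ1-GAS3 went from 117 to 141 nt. Of these 5, LYS21-STF1 and SCJ1-GAS3 kept the call when the most used position replaced the median, and LYS20-INH1, TIF34-NDE1 and COX14-ERO1 lost it. The 3 narrower pairs all kept it. RSM25-LYS12 went from 206 nt in glucose to 168 nt in galactose, ARO4-HIS7 from 236 to 211 nt, and FCY2-HIS1 from 566 to 543 nt. LYS12 acts in lysine synthesis and HIS7 and HIS1 in histidine synthesis. LYS20 and LYS21 have near-identical sequences, so their reads are uncertain.

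Of the pairs with the most upstream reads, RPS14A-SYP1 is described above, and 3 others had next to no read-through. VMA3-SNU13, a proton pump subunit upstream of an RNA-binding protein of the spliceosome and snoRNPs, had 75 of 280448 standard reads past the start. RPL30-CGR1 had 2 of 94171 and RPL27A-DIA4 5 of 75919. RPL18B-RPS19B, with both members ribosomal, had 10 of 25418 (0.0393%) at a gap of 444 nt. RPS9B-RPL21A, of the same kind, had 16 of 24575 at 674 nt. In both of these ribosomal pairs a member has a near-identical copy, so that their reads are uncertain. In VMA3-SNU13 74 of the 75 reads covered both genes and 45 of them were 1 pair of ends. Whether such rare reads join the ends of different molecules in the ligation step was not tested.

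Among pairs with at least 1000 upstream reads, the closest ones with under 0.1% read-through lay 58 to 71 nt apart. LIA1, the deoxyhypusine hydroxylase that modifies eIF5A, lies 58 nt upstream of HAM1, and 2 of 5084 standard reads ended past the HAM1 start. UMP1-SMY2, with the proteasome assembly factor UMP1 upstream, had 0 of 1920 at 67 nt, and EAF6-AIM24, with a histone acetyltransferase subunit upstream, had 0 of 1143 at 71 nt. These pairs were chosen for that pattern.

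In GAL10-GAL7, 2 enzymes of galactose catabolism in 1 cluster, 0 of 4863 standard reads in galactose ended past the GAL7 start, which allows a share of up to 0.0617%. In long-enriched galactose reads 3 of 26063 did, and 1 of them covered GAL7 whole. The gap is 595 nt. In glucose 0 standard and 16 long-enriched reads covered GAL10, so the media could not be compared. GAL1-FUR4, in the same cluster, had 17 of 24302 reads past the start of FUR4, the uracil permease gene. TRP1-GAL3 and SUR7-GAL80, with regulators of the galactose genes downstream, had 0 of 3698 and 0 of 668.

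By gene group, upstream cytosolic ribosomal protein genes were set far from their neighbours. Their 41 pairs had a median gap of 275 nt beside 188 nt over all pairs. Of the 41, 1 pair, RPS14A-SYP1, had a share of 1% or more (2.44%), against 140 of all 775 pairs (18.1%). The 140 take in all 33 overlapping pairs, and 0 of the 41 overlapped. Among pairs with a gap of 0 or more the count was 107 of 742. No read past the start was seen in 27 of the 41 (65.9%), against 500 of all 775 pairs (64.5%). The 41 pairs held 1171711 of the 2621532 upstream reads, so they also differ in depth. Of 15 pairs with a mitochondrial ribosomal protein gene upstream, with a median gap of 145 nt, 6 had 1% or more, the highest being MRP21-AVT5 with 22 of 392 reads at a gap of 32 nt. RSM19-MRPS12, the pair with both members in that group, had 0 of 248 at 95 nt. Of 11 pairs with a respiratory chain or ATP synthase gene upstream, 3 had 1% or more: ATP15-MDL2, COX9-CBS1 with 213 of 4206 at 31 nt, and ATP11-PHA2 with 1 of 70. ATP11 encodes an assembly factor rather than a subunit. Of 8 pairs with a proteasome gene upstream and 3 with a glycolytic gene upstream, 0 had 1% or more. No tandem pair had a hexose transporter as both members, and HXT7-YDR341C, the single pair with one upstream, had 0 of 853. The groups differ in gap as well as in share, and the lists were matched by gene name, which takes in GAL83, a subunit of the Snf1 kinase complex, with the galactose genes.

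The reverse case, a downstream transcript that begins inside the upstream one, was also rare among reads covering the downstream coding sequence and no other. Standard reads covering both coding sequences, seen in 134 of the 775 pairs, are left out here. In 580 of the 742 pairs with a gap of 0 or more, no such standard read started before the upstream median 3′ end, and in 15 pairs 10% or more did. The highest were YDL204W-A-RTN2 with 43 of 91 reads (47.3%), YJL047C-A-UBX6 with 91 of 223, BUB3-STI1 with 162 of 458 and SYP1-RIM1 with 2601 of 7992. STI1 is an Hsp90 co-chaperone, BUB3 a spindle checkpoint protein and RIM1 the mitochondrial single-stranded DNA-binding protein. In YDL204W-A-RTN2 35.2% of these RTN2 reads started before the stop codon of YDL204W-A, while in the other 3 no such read did. These 4 pairs were named after their values were seen.

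Ends far past a gene's own median were counted in tandem upstream genes and in the other arrangements. At least 1% of reads ended over 200 nt past the gene's median 3′ end in 104 of 775 tandem upstream genes (13.4%), 115 of 910 divergent genes (12.6%) and 92 of 1034 convergent genes (8.90%). A gene can be in more than 1 of these groups, so no test was made.

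The 3′ end and promoter windows were searched for short motifs, with the counts given per class of pairs and no test. TATATA, the efficiency element of yeast polyadenylation, was present on the sense strand from 100 nt before to 50 nt after the upstream median 3′ end in 50.1% of the 775 pairs, in 9 of the 25 pairs with a gap of 0 or more and a share of 10% or more (36%), and in 51.2% of the 635 with under 1%. The same window around all 3140 genes with 50 reads held it in 53.5%. AATAAA, the positioning element, was there in 23.7, 24, 24.9 and 27.7%, in the same order. In the 200 nt before the downstream start, on either strand, TATAAA was present in 41.8, 48, 41.9 and 36.4%, and a run of 8 A or 8 T in 35.0, 44, 35.0 and 31.7%.

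TTACCCG, the Reb1 site, was found in that window in 75 of 775 pairs (9.68%), 68 of the 635 pairs with a share under 1% (10.7%), 7 of the 82 with 1 to under 10%, and 0 of the 25 with 10% or more. It was also in 0 of the 33 overlapping pairs, and in 9.52% of all genes. With 25 pairs in a class, a count of 0 sites allows a share of up to 12%, which includes the share over all pairs. The window of 200 nt before the start reaches into the upstream gene where the gap is small, and the searches for TATAAA and runs can overlap with those for the other motifs. A match here is a match of letters, not a bound site.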

How the data were processed

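Per the labels' protocols, RNA was reverse-transcribed into full-length cDNA, whose ends were ligated into circles, and the fragments with the junction were sequenced as Illumina libraries. CASAVA, Novoalign 2.07.10 and the R64 build are named in the submitters' processing notes. The deposited values are counts of reads for each combination of start and end position, summed by the authors over libraries of a kind, per the file headers. The table has 2502656 rows in 6 count columns with the totals given above. The sources used here do not say whether duplicates were collapsed, so PCR copies may inflate the counts.

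Positions were matched to R64 (RefSeq), which also gave every sequence printed. Medians are over reads, and molecule lengths include introns. A gene was taken to have a near-identical copy where its spliced coding sequence matched another at 90% identity over 80% of its length (blastn 2.17.0), which held for 384 genes and touched 74 of the pairs. A share of 0 was given a limit of 3 counts. Python 3.11.15, pandas 2.3.3 and scipy 1.17.1 were used, and the calls were tested on simulated data. The simulated counts were independent, without spread between cultures or PCR copies, and the pairs were moved by far more than 5 points. The simulation therefore cannot show how calls near 5 points hold in summed libraries. Pairs were named by a rule: the 5 deepest overlaps, the 10 highest shares and the 5 highest shares covering both members among pairs with at least 200 upstream reads, the 5 widest gaps, the 5 with the most reads, those called between media, GAL10-GAL7, and pairs with both members in 1 gene list. A pair that this rule also takes in is not reported here. Any other pair named was picked with its values in view. The members, lists and named pairs were chosen with earlier results of these data known. Alternatives changed the minimum of reads, the position of the ends, the limit for read-through, the counting of reads and the calls. Because the columns are sums, tests over replicates were not run.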

Additional observations from a re-analysis of the deposited data

How the results depend on the processing

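The median gap stayed between 180 and 197.5 nt under 11 alternatives. The number of pairs (775) was 1126 with a minimum of 20 reads and 294 with a minimum of 200. Overlapping pairs (33 of 775) numbered 55 of 1126 with a minimum of 20 reads, 4 of 294 with 200, and 50 of 798 when reads covering further genes were kept. Pairs at 1% or more with a gap of 0 or more (107 of 742) became 29 of 290 with a minimum of 200. Of the same 742 pairs, 66 reached 1% with the limit 50 nt past the start, 164 with each pair of ends counted once and 179 in long-enriched reads. Those at 10% or more (25 of 742) became 46 of 1071 with a minimum of 20 and 6 of 290 with 200. Of the same 742 pairs, 14 reached 10% at the start codon, 12 at 50 nt, 39 with each pair of ends once and 65 in long-enriched reads. The pairs lower in galactose (2 of 464 tested) became 0 at 10 points, 0 at 2-fold and 1 at the start codon (NCS6-YPT32). With each pair of ends once they were 0 of 327 tested. With a minimum of 200 per column they were 1 of 216 tested (ATP15-MDL2), and NCS6-YPT32 was not among those tested. In standard reads alone 8 pairs were lower and 1 was higher. The cause of these changes was not tested.

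Alternatives added after the data were seen moved the pairs higher in long-enriched reads from 20 to 11 with each pair of ends once, the pairs lower from 1 to 0 at the start codon, and the narrower gaps from 3 to 6 with the most used position, the 3 among them; the wider gaps stayed at 5, of which 2 were shared. Of reads past the start, 61.7, 28.7 and 9.61% ended before the start codon, inside the coding sequence and past the stop codon with each pair of ends once, 85.4, 12.6 and 2.03% with pairs of ends seen at least 2 times, 38.1, 38.7 and 23.3% in long-enriched reads, and 65.0, 29.5 and 5.45% without RPS14A-SYP1.

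No paired analysis was possible because the deposited columns sum the libraries and carry no culture numbers; leaving out replicates was not run for the same reason. Depth limits the pairs at 50 reads, where 0 reads past allows up to 6%.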
